A study of Mus musculus with 9 samples.

Results

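The genes described here make, sense, take up and export cholesterol in splenic type 2 conventional dendritic cells (cDC2s), which prime CD4 T cells in particular. They form a list of 34 gene symbols, and all 34 are among the 14209 genes of the deposited count table. By role, 7 act in the mevalonate pathway, 10 in squalene and sterol synthesis and 5 in sterol sensing through SREBP. Another 4 act in sterol uptake and transport and 3 in fatty acid uptake and synthesis. The other 5 encode LXR receptors or act in sterol efflux or storage. All 34 also passed the filter on low counts, which kept 12043 genes. RNA was sequenced from cDC2s of the spleens of C57BL/6 mice, 3 libraries in each of 3 groups. The WT group carried no listed mutation. The CD97-deficient group lacked Adgre5, which encodes the adhesion receptor CD97 and is listed in the table under its older symbol Cd97. In the Gα13-deficient group, Gna13 alleles flanked by loxP sites (Gna13 fl/fl) were deleted by a Cre recombinase under the CD11c promoter, which is active in dendritic cells and also in some macrophages. The genotype text of that last group names Adgre5-/- as well. Whether WT or CD97-deficient mice carried the Cre transgene, whether animals were pooled, their age, and how the cells were sorted are not given in the sources used here.

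Animal cells build cholesterol from acetyl-CoA. The mevalonate pathway makes the isoprenoid farnesyl diphosphate, squalene synthase joins its units into squalene, and a chain of sterol enzymes turns squalene into cholesterol. The transcription factors SREBP1 and SREBP2 are held in the endoplasmic reticulum with their escort SCAP by INSIG proteins when sterols are plentiful, and move to the Golgi to be cut and activated when sterols are scarce. SREBP2 acts mainly on sterol enzymes and SREBP1 mainly on fatty acid enzymes. Oxysterols activate the LXR receptors, which raise transcription of cholesterol exporters and of a ligase that removes the LDL receptor. In dendritic cells, cholesterol is known to shape membrane domains that hold MHC molecules, and oxysterols guide the migration of cDC2s through a chemotactic receptor.

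Promoters of the members that passed the test against WT with the smallest p, among those with an entry, are printed to show the letters that SREBP partners recognise. They come from RefSeq (GRCm38.p6) and span 250 bases before to 50 bases after an annotated start, 5′ to 3′ on the strand of the gene. Of the 34 members, 27 had an entry, and Abcg1, Fdft1, Fdps, Npc1, Scd2, Sqle and Stard4 had none. Hmgcs1 (chr13:119690101-119690400, plus strand), Mvd (chr8:122443373-122443672, minus strand) and Sc5d (chr9:42264251-42264550, minus strand) had higher counts in CD97-deficient cells, and Mylip (chr13:45389492-45389791, plus strand) had lower counts in both knockouts. Capitals mark TCACNCCAC (a sterol regulatory element), CCAAT (bound by NF-Y) and GGGCGG (bound by Sp1), each searched on both strands, so that ATTGG and CCGCCC are capitals too.
Hmgcs1: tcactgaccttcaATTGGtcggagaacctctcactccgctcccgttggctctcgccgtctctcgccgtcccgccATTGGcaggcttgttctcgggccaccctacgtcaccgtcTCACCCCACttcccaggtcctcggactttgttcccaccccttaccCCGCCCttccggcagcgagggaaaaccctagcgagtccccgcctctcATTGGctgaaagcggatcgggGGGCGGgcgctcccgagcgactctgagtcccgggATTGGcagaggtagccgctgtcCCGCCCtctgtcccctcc
Mvd: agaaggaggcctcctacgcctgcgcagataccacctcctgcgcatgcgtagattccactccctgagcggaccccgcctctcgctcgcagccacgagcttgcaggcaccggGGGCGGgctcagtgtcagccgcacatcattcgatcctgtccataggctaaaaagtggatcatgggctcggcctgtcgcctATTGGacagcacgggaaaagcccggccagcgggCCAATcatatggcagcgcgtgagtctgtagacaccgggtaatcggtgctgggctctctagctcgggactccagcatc
Sc5d: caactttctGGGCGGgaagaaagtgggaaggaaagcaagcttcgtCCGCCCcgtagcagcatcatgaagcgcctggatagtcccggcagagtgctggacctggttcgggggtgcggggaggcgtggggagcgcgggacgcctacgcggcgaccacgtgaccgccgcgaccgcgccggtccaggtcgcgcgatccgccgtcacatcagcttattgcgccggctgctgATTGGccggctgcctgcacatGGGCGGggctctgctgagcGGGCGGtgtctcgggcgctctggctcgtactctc
Mylip: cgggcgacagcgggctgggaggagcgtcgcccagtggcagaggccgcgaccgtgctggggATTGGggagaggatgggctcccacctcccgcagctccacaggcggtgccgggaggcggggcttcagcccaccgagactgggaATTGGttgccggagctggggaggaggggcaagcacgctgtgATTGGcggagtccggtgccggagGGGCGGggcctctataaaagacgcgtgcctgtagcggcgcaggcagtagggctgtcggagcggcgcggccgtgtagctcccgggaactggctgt
The letters TCACNCCAC were in 1 of the 27 genes with an entry, Hmgcs1, where the match TCACCCCAC began 137 bases before the start. Of the 8612 tested genes with an entry, 1.36% held them. CCAAT was in a promoter of 13 of the 14 sterol enzyme genes with an entry and of 9 of the 13 other members, against 43.6% of the 8612 tested genes with an entry. GGGCGG was in 13 of the 14 and 10 of the 13, against 67.6%. The LXR element DR4 (AGGTCA repeated after a gap of 4 bases) was in 0 of the 27 and 0 of the 8612 tested genes. Over all 32851 promoters it was in 0.0152%. These are matches of letters in a short window, and no binding was measured. Among the promoters printed, Mylip, which fell, also held CCAAT, 3 times, and GGGCGG.

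Totals ran from 5679946 to 13904646 counts per library. Levels are given as CPM, counts scaled to a common library size with TMM factors. Cd97 had 1506, 899 and 1299 CPM across WT replicates 1 to 3, 726, 839.8 and 438 across the CD97-deficient and 1145, 1224 and 1016 across the Gα13-deficient ones. Loss of CD97 came with a Cd97 log2 fold change of -0.89 ± 0.28 (SE), which did not pass (adjusted p = 0.105, edgeR). Gα13-deficient libraries lay above all CD97-deficient ones, against the text that names Adgre5 there, and which part of the gene is deleted was not stated. Gna13 had 186 to 228 CPM in WT and 91.7 to 114 CPM in Gα13-deficient libraries. All 12 listed cDC2 markers were detected in every library, at a summed 5023 to 5966 CPM in WT, 4459 to 4956 CPM in CD97-deficient and 4995 to 5486 CPM in Gα13-deficient libraries, so that CD97-deficient libraries lay below all WT ones. No single cDC2 marker passed in CD97-deficient cells, and in Gα13-deficient cells 1 rose and 3 fell. The 7 plasmacytoid dendritic cell markers summed to 153 to 209 CPM in WT, 170.3 to 193 CPM in CD97-deficient and 215 to 332 CPM in Gα13-deficient libraries, where 2 of them rose. Monocyte markers summed to 260.2 to 532 CPM and cDC1 markers to 141 to 275 CPM over all libraries, with T cell markers at a sum of 2.21 to 15.4 CPM and NK cell markers at 0.170 to 3.17 CPM. The 17 macrophage markers in the table, of 18 listed, all had counts in every library and summed to 715 to 1725 CPM in WT, 834 to 2200 CPM in CD97-deficient and 929 to 1292 CPM in Gα13-deficient libraries. Against WT, 16 of the 17 had a log2 fold change above 0 in CD97-deficient cells (median 0.89), where 1 passed as higher and 1 as lower. In Gα13-deficient cells 11 of the 17 were above 0 (median 0.16), where 0 passed as higher and 1 as lower. By Xist and Y-linked genes, 3 of 3 CD97-deficient, 1 of 3 WT and 1 of 3 Gα13-deficient libraries had a female pattern, in WT and Gα13-deficient cells replicate 2.

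Levels were compared between genes per kilobase of annotated exon (CPM per kb, mean ± SD, n = 3). That length counts every base that is exon in any annotated transcript, 5438 bases for Npc2 and 4403 for Tm7sf2. It can exceed the transcript that the cells make, and the order of genes depends on it. By this length Srebf2, which encodes the SREBP of sterol synthesis, was the highest member in WT cells, at 25.2 ± 3.33. Next was Npc1, the lysosomal cholesterol exporter, at 22.4 ± 2.52. Within their spread these 2 could not be ordered. Scd2, a fatty acid desaturase, had 19.3 ± 5.19, Soat1, which esterifies cholesterol for storage, 18.0 ± 1.17, Cyp51, lanosterol demethylase, 17.0 ± 3.99, and Pmvk, phosphomevalonate kinase, 16.7 ± 4.16 CPM per kb, and these too lay within each other's spread. By the same length each of these 6 had the highest level in its role group. The lowest were Tm7sf2, a sterol reductase, at 1.15 ± 0.429, and Cd36, a fatty acid transporter, at 1.22 ± 0.495 CPM per kb. In CD97-deficient cells the order changed at the top, with Scd2 at 37.1 ± 9.16 and Hmgcs1, HMG-CoA synthase, at 36.0 ± 6.55 next to Srebf2 at 31.8 ± 3.97 CPM per kb.

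**Figure D1:**
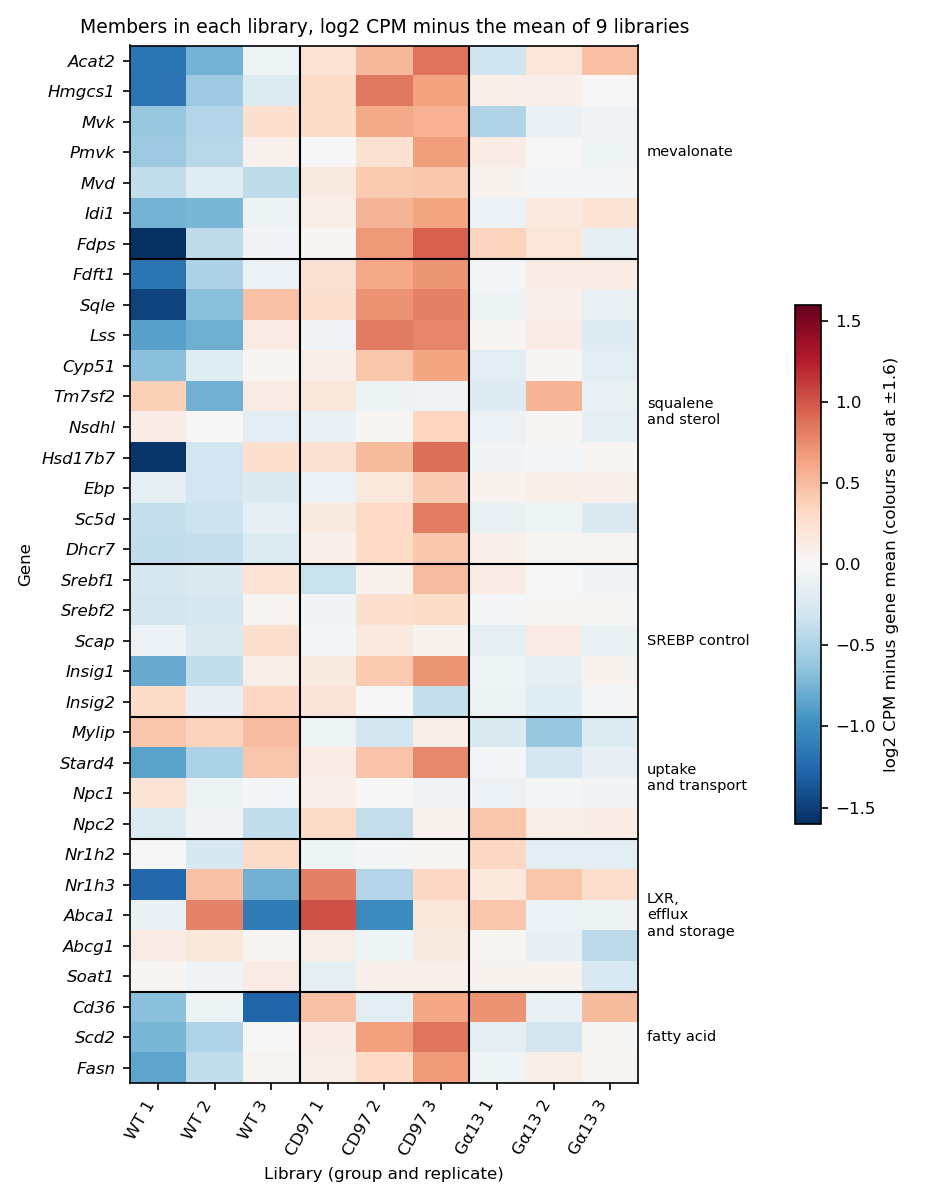
Level of each of the 34 members (rows, by role) in each of the 9 libraries (columns), as log2 CPM minus the mean of that gene over the libraries; red is above and blue below the mean. Sterol enzymes are mostly blue in WT replicates 1 and 2, red in CD97-deficient replicates 2 and 3 and pale in Gα13-deficient libraries.

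Cells without CD97 had higher counts of 8 of the 17 sterol synthesis enzymes. Of the 34 members, 10 rose and 1 fell against WT (edgeR quasi-likelihood test, Benjamini-Hochberg adjusted over all 12043 genes, threshold 0.05). Among all genes tested 8.53% passed, 4.84% as higher and 3.69% as lower, and among the members 29.4% rose. The genes that rose were Acat2, Hmgcs1, Mvd, Idi1, Fdft1, Cyp51, Sc5d, Dhcr7, Insig1 and Scd2, and the gene that fell was Mylip. The median log2 fold change was 0.66 over the members and -0.00 over all genes tested. Above 0 were 28 of 34 members, all 17 enzymes of the sterol route among them, against 49.6% of all genes. In 14 of the 34 members every CD97-deficient library was above every WT library, against 14.7% of all genes tested. None of the 11 calls was kept without CD97-deficient replicate 3 (adjusted p 0.0546 to 0.147), and leaving out CD97-deficient replicate 2 kept 4, leaving out WT replicate 1 kept 3 and leaving out WT replicate 2 kept 5. With the sex pattern in the model 0 members passed (adjusted p of the 11 between 0.110 and 0.341; 222 of all genes passed), and the median over the members was 0.63. All 3 CD97-deficient libraries had the female pattern, so the sex term rests on the WT and Gα13-deficient groups, which hold both patterns, and within CD97-deficient cells sex pattern and genotype cannot be told apart.

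**Figure D2:**
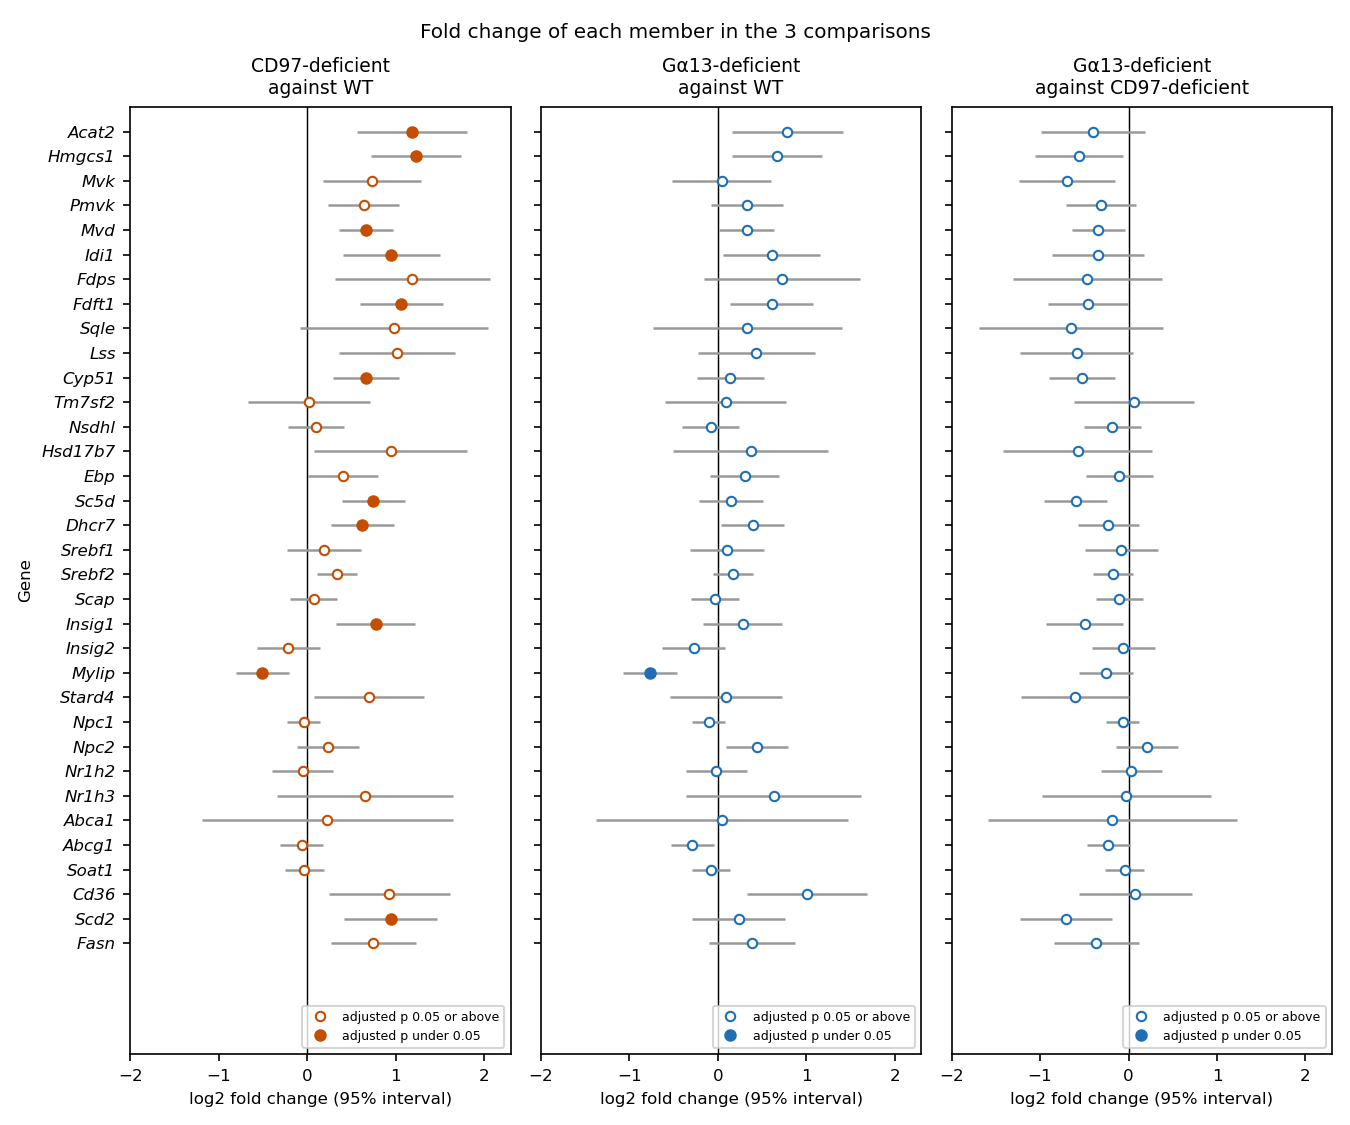
Log2 fold change (x axis) of each member (y axis) in the 3 comparisons, with 95% intervals as lines; filled points have an adjusted p under 0.05. Filled points are 11 in CD97-deficient against WT, 1 (Mylip) in Gα13-deficient against WT and 0 in the direct comparison of the knockouts.

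In the mevalonate pathway 4 of 7 members rose in CD97-deficient cells, and the median log2 fold change was 0.95. Acat2 (chromosome 17, 12942890 to 12960747, mm10), which joins acetyl-CoA units, had 4.58, 6.12 and 9.85 CPM across WT replicates 1 to 3, 11.9, 14.9 and 18.9 across the CD97-deficient and 8.29, 11.8 and 14.4 across the Gα13-deficient ones. All 3 CD97-deficient libraries were above WT, and WT replicate 3 overlapped with Gα13-deficient replicates. Its log2 fold change was 1.19 ± 0.29 (SE; adjusted p = 0.0221) against WT. Its close copy Acat3 stayed at or under 2.21 CPM, and how reads shared between the copies were counted is not stated. Hmgcs1 (chromosome 13, 119690379 to 119708260), which makes HMG-CoA, had 47.7, 72.2 and 93.1 CPM across WT replicates 1 to 3, 134, 194 and 169 across the CD97-deficient and 116, 115 and 107 across the Gα13-deficient ones. The groups did not overlap in any pair, with WT lowest and CD97-deficient cells highest. Loss of CD97 came with a log2 fold change of 1.23 ± 0.22 (adjusted p = 0.0131), the largest of the 34 members, and in Gα13-deficient cells it was 0.67 ± 0.22 (adjusted p = 0.0931).

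Further along the pathway, Mvd (chromosome 8, 122433601 to 122443422), the decarboxylase that makes isopentenyl diphosphate, had 16.8, 19.3 and 16.6 CPM across WT replicates 1 to 3, 24.5, 29.6 and 29.7 across the CD97-deficient and 22.9, 21.6 and 21.6 across the Gα13-deficient ones. Its 3 groups did not overlap either, and it rose by 0.67 ± 0.14 (adjusted p = 0.0111) after loss of CD97. Idi1 (chromosome 13, 8885501 to 8892451), which interconverts the isoprene units, had 4.15, 4.21 and 6.62 CPM across WT replicates 1 to 3, 7.57, 10.3 and 10.8 across the CD97-deficient and 6.59, 7.82 and 8.14 across the Gα13-deficient ones. It rose by 0.95 ± 0.26 (adjusted p = 0.0329), and WT replicate 3 reached the level of the lowest Gα13-deficient library. The calls of Hmgcs1 and Mvd were kept in 8 of 9 fits that left out a library each, and those of Acat2 and Idi1 in 5 of 9. The other 3 members did not pass in CD97-deficient cells. Fdps, which makes farnesyl diphosphate, had a log2 fold change of 1.19 ± 0.38 (adjusted p = 0.0982), with WT libraries spread from 6.65 to 20.0 CPM. Pmvk, a kinase of the pathway, had 23.3, 25.7 and 36.7 CPM across WT replicates 1 to 3, 34.9, 41.6 and 55.8 across the CD97-deficient and 37.9, 35.3 and 33.6 across the Gα13-deficient ones. WT replicate 3 was its highest WT library, and the log2 fold change was 0.64 ± 0.19 (adjusted p = 0.0532). The other kinase, Mvk, had 0.73 (adjusted p = 0.0927).

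**Figure D3:**
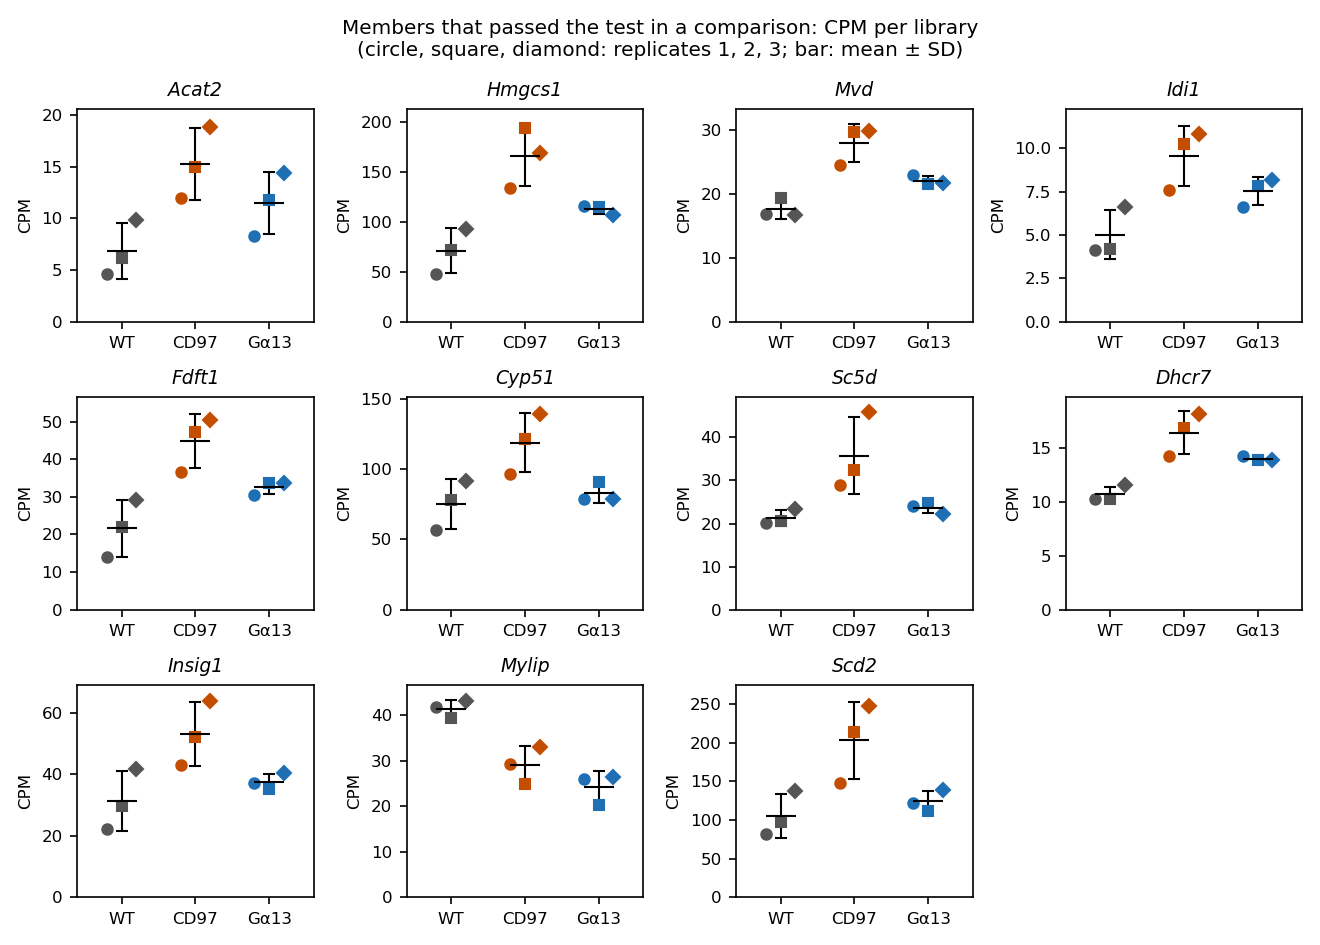
CPM (y axis, from 0) of the 11 members with an adjusted p under 0.05 in a comparison, by group (x axis: WT, CD97-deficient, Gα13-deficient); points are libraries and bars mean ± SD. In 10 panels CD97-deficient libraries lie above WT ones, and in the panel of Mylip both knockouts lie below WT.

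Squalene and sterol enzymes showed 4 of 10 members higher in CD97-deficient cells, with a median log2 fold change of 0.71. Fdft1 (chromosome 14, 63145150 to 63179578), squalene synthase and the first step committed to sterols, had 13.9, 22.0 and 29.0 CPM across WT replicates 1 to 3, 36.7, 47.2 and 50.5 across the CD97-deficient and 30.4, 33.7 and 33.6 across the Gα13-deficient ones. Groups did not overlap, and its log2 fold change was 1.07 ± 0.22 (adjusted p = 0.0110) in CD97-deficient and 0.61 ± 0.22 (adjusted p = 0.0955) in Gα13-deficient cells. Its exons share 774 bases (18.3% of its exon length) with Ctsb on the other strand, and without strand such reads cannot be told apart. Ctsb did not pass in CD97-deficient cells (log2 fold change 0.37, adjusted p = 0.507). Other enzymes overlap genes on the same strand. The exons of Fdps share 1124 bases (26.7%) with Gm43738, and those of Tm7sf2 share 532 bases (12.1%) with Vps51. Cyp51 (chromosome 5, 4081145 to 4104746), which removes a methyl group from lanosterol, had 56.3, 77.9 and 91.2 CPM across WT replicates 1 to 3, 96.5, 121 and 139 across the CD97-deficient and 78.7, 90.7 and 79.0 across the Gα13-deficient ones. CD97-deficient libraries were above WT, Gα13-deficient ones lay among the WT values, and the log2 fold changes were 0.67 ± 0.17 (adjusted p = 0.0356) and 0.14 (adjusted p = 0.655).

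Near the end of the route, Sc5d (chromosome 9, 42251595 to 42264256), the sterol desaturase, had 20.1, 20.5 and 23.4 CPM across WT replicates 1 to 3, 28.9, 32.5 and 45.8 across the CD97-deficient and 24.0, 24.9 and 22.3 across the Gα13-deficient ones. It rose by 0.75 ± 0.17 (adjusted p = 0.0135) in CD97-deficient cells, in which replicate 3 was the highest. Dhcr7 (chromosome 7, 143823145 to 143848410), which makes cholesterol from 7-dehydrocholesterol, had 10.3, 10.3 and 11.6 CPM across WT replicates 1 to 3, 14.3, 16.8 and 18.2 across the CD97-deficient and 14.3, 13.9 and 13.9 across the Gα13-deficient ones. CD97-deficient and Gα13-deficient libraries were all above WT, with a called rise of 0.62 ± 0.17 (adjusted p = 0.0333) in the former and a log2 fold change of 0.39 ± 0.17 (adjusted p = 0.152) in the latter. Calls held in 8 of 9 leave-one-out fits for Fdft1, 7 for Sc5d, 5 for Dhcr7 and 3 for Cyp51. Of the members that did not pass, Sqle, squalene epoxidase, had the widest WT range of the 17 enzymes as a ratio of highest to lowest (3.84), with 12.7, 22.2 and 48.6 CPM in replicates 1 to 3 against 42.0, 58.0 and 61.8 in CD97-deficient cells (log2 fold change 0.99, 95% interval -0.08 to 2.05, adjusted p = 0.237). Lss, lanosterol synthase, had 1.02 (adjusted p = 0.0609) and Hsd17b7, a sterol ketoreductase, 0.94 (adjusted p = 0.171). The X-linked members Ebp, a sterol isomerase, and Nsdhl, which removes methyl groups, had 0.41 and 0.10 (adjusted p = 0.188 and 0.724). Tm7sf2 was at 0.02 with an interval of -0.67 to 0.71.

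Among the 5 genes of SREBP control, Insig1 alone passed in CD97-deficient cells. Insig1 (chromosome 5, 28071363 to 28078662), the retention protein that is itself an SREBP target, had 22.3, 29.8 and 41.6 CPM across WT replicates 1 to 3, 42.9, 52.2 and 63.7 across the CD97-deficient and 37.0, 35.1 and 40.3 across the Gα13-deficient ones. It rose by 0.78 ± 0.20 (adjusted p = 0.0370), with WT replicate 3 and CD97-deficient replicate 1 close together, and this call was kept in 2 of 9 leave-one-out fits. The second retention protein gene, Insig2, had a log2 fold change of -0.21 (95% interval -0.57 to 0.14; adjusted p = 0.460). Srebf2 had 165, 169 and 208 CPM across WT replicates 1 to 3, 196, 242 and 248 across the CD97-deficient and 199, 204 and 205 across the Gα13-deficient ones. Its ranges overlapped, as WT replicate 3 was above CD97-deficient replicate 1, and the log2 fold change was 0.34 ± 0.11 (adjusted p = 0.0612). Srebf1, which encodes SREBP1, and Scap, the escort, had 0.19 and 0.07 (adjusted p = 0.590 and 0.763). In Gα13-deficient cells none of the 5 passed, and their log2 fold changes ran from -0.27 (Insig2) to 0.28 (Insig1).

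Mylip was the member that fell in both knockouts. Mylip (chromosome 13, 45389742 to 45412022) is an LXR target, a ubiquitin ligase that marks the LDL receptor for degradation. It had 41.7, 39.4 and 43.1 CPM across WT replicates 1 to 3, 29.2, 24.9 and 33.1 across the CD97-deficient and 26.0, 20.2 and 26.4 across the Gα13-deficient ones. Both knockout groups lay below all WT libraries, and Gα13-deficient replicate 2 was the lowest. Against WT the log2 fold change was -0.76 ± 0.14 (adjusted p = 0.00328) in Gα13-deficient cells, kept in all 9 leave-one-out fits (highest adjusted p 0.0206), and -0.51 ± 0.14 (adjusted p = 0.0391) in CD97-deficient cells, kept in 4 of 9. The CD97-deficient call was lost when only library totals set the scale (adjusted p = 0.0623). It was also lost in edgeR fits that included the sex pattern (-0.35, adjusted p = 0.341) or the macrophage marker level (-0.51, adjusted p = 0.105). In the male-pattern libraries alone, 2 against 2, the Gα13-deficient value was -0.69 (adjusted p = 0.0425). The 2 comparisons share the WT libraries.

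None of the other transport members passed against WT. Stard4, a cytosolic sterol carrier and SREBP target, had 9.16, 11.7 and 22.6 CPM across WT replicates 1 to 3, 18.1, 22.9 and 28.3 across the CD97-deficient and 16.5, 13.7 and 15.1 across the Gα13-deficient ones. CD97-deficient and WT ranges overlapped through WT replicate 3, and the log2 fold change was 0.70 ± 0.29 (adjusted p = 0.155). Npc1, which exports cholesterol from lysosomes, had 286, 232 and 242 CPM across WT replicates 1 to 3, 259.6, 246 and 235 across the CD97-deficient and 230.3, 241 and 237 across the Gα13-deficient ones. All 3 groups overlapped, with log2 fold changes of -0.04 (95% interval -0.22 to 0.15) in CD97-deficient and -0.10 (-0.29 to 0.09) in Gα13-deficient cells. Its partner Npc2 had 76.1, 86.2 and 67.6 CPM across WT replicates 1 to 3, 109, 67.8 and 92.9 across the CD97-deficient and 120.4, 95.6 and 96.2 across the Gα13-deficient ones. Gα13-deficient libraries were above all WT libraries, with a log2 fold change of 0.44 ± 0.16 (adjusted p = 0.104).

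LXR, efflux and storage genes did not pass in either knockout, and 2 of them varied between libraries with macrophage markers. Nr1h3, which encodes LXRα, had 4.58, 15.2 and 6.45 CPM across WT replicates 1 to 3, 19.2, 7.91 and 13.9 across the CD97-deficient and 12.4, 15.0 and 13.4 across the Gα13-deficient ones. Abca1, which exports cholesterol to apolipoprotein acceptors, had 14.1, 26.2 and 6.96 CPM across WT replicates 1 to 3, 30.8, 7.47 and 17.2 across the CD97-deficient and 20.6, 14.3 and 14.3 across the Gα13-deficient ones. For both genes WT replicate 2 and CD97-deficient replicate 1 were high and CD97-deficient replicate 2 and WT replicate 3 low, while Nr1h3 was lowest in WT replicate 1. The 17 macrophage markers, as mean log2 CPM centred on the 9 libraries, stood at -0.85, 0.76 and -1.14 across WT replicates 1 to 3, 1.22, -0.68 and 0.71 across the CD97-deficient and 0.00, 0.35 and -0.38 across the Gα13-deficient ones. These markers too were high in WT replicate 2 and CD97-deficient replicate 1. They were also high in CD97-deficient replicate 3, where Nr1h3 and Abca1 were lower than in those 2 libraries. In bulk RNA, fewer cells of a type and less RNA per cell cannot be told apart. The log2 fold changes in CD97-deficient cells were 0.66 (95% interval -0.34 to 1.65) and 0.23 (-1.19 to 1.65), and a fit that included the macrophage level gave 0.14 and -0.52. Without WT replicate 2, Nr1h3 passed in both knockouts.

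The remaining members of the LXR, efflux and storage group did not pass either. Abcg1, which exports cholesterol to lipoproteins, had 93.4, 96.1 and 87.3 CPM across WT replicates 1 to 3, 90.5, 81.2 and 93.9 across the CD97-deficient and 86.5, 77.5 and 63.4 across the Gα13-deficient ones. Its Gα13-deficient libraries lay below all WT libraries, with a log2 fold change of -0.29 ± 0.11 (adjusted p = 0.124), and in CD97-deficient cells the value was -0.06 (95% interval -0.30 to 0.18). Nr1h2, which encodes LXRβ, had -0.05 and -0.02 in the CD97-deficient and Gα13-deficient groups, and Soat1 -0.03 and -0.07. Soat1 counts were 176, 165 and 188 CPM across WT replicates 1 to 3, 154, 182 and 182 across the CD97-deficient and 179, 179 and 146 across the Gα13-deficient ones, so that the groups overlapped. For Soat1 the intervals were -0.25 to 0.19 and -0.29 to 0.14, so a fold change of the size seen in Hmgcs1 lay outside both.

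**Figure D4:**
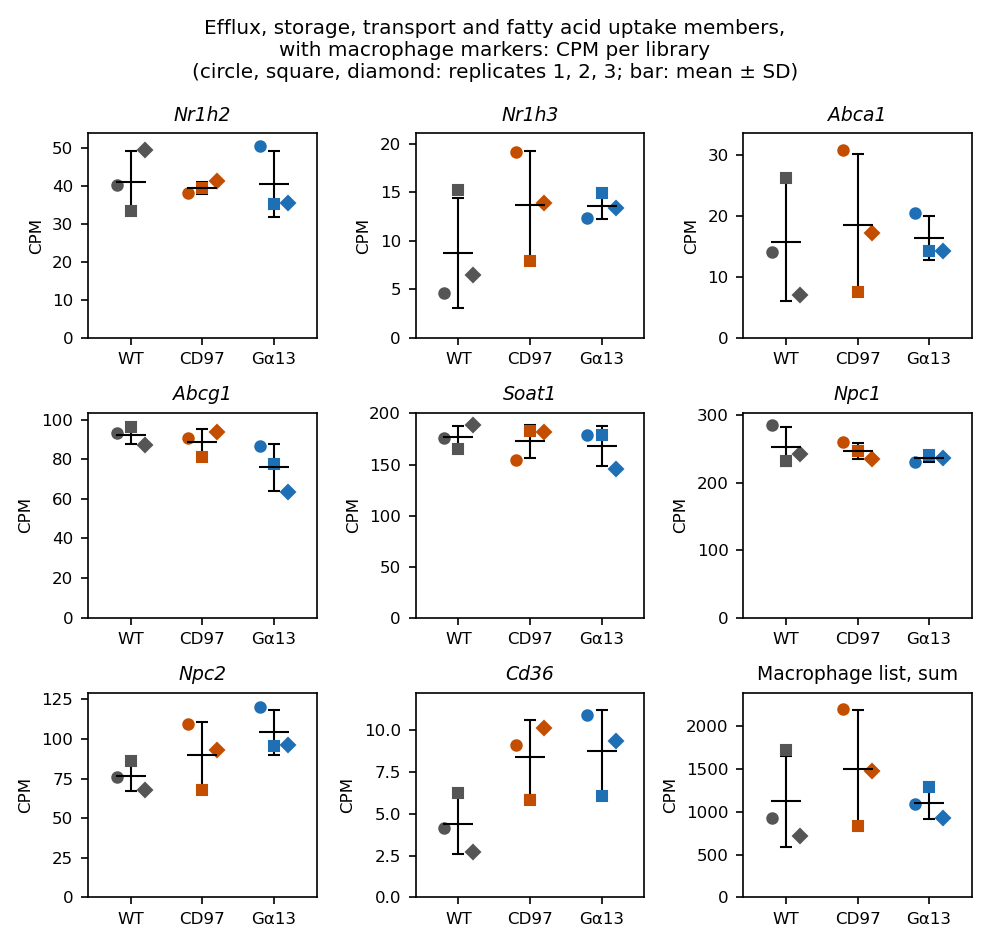
CPM (y axis, from 0) of 8 efflux, storage, transport and uptake members, and the summed CPM of 17 macrophage markers, by group (x axis); points are libraries and bars mean ± SD. Nr1h3 and Abca1 are high in WT replicate 2 and CD97-deficient replicate 1, as the macrophage sum is, while Abcg1, Soat1 and Npc1 vary little.

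In the fatty acid group Scd2 passed in CD97-deficient cells. Scd2 (chromosome 19, 44293674 to 44306864), which makes monounsaturated fatty acids, had 81.9, 98.0 and 137 CPM across WT replicates 1 to 3, 148, 214 and 247 across the CD97-deficient and 122, 111 and 138 across the Gα13-deficient ones. CD97-deficient libraries were above all others, with a log2 fold change of 0.95 ± 0.23 (adjusted p = 0.0414; kept in 2 of 9 leave-one-out fits), while Gα13-deficient cells had 0.24 (adjusted p = 0.572). Fasn, fatty acid synthase, had 58.9, 80.7 and 109 CPM across WT replicates 1 to 3, 114, 132 and 169 across the CD97-deficient and 101, 113 and 109 across the Gα13-deficient ones. All 3 CD97-deficient libraries exceeded WT, and the log2 fold change of 0.75 ± 0.21 did not pass (adjusted p = 0.0652). Cd36, which takes up fatty acids and is also carried by macrophages, had 4.15, 6.25 and 2.72 CPM across WT replicates 1 to 3, 9.11, 5.86 and 10.2 across the CD97-deficient and 10.9, 6.08 and 9.35 across the Gα13-deficient ones. The Cd36 log2 fold changes were 0.93 ± 0.32 (adjusted p = 0.0870) in CD97-deficient and 1.01 ± 0.32 (adjusted p = 0.0557) in Gα13-deficient cells, neither past the threshold, at 16 to 131 counts per library. In the male-pattern libraries alone the Gα13-deficient Cd36 value was 1.52 (2 against 2, edgeR adjusted p = 0.0269). In the female-pattern libraries, 1 against 1, it was -0.03. With 1 library a group, that value cannot show whether the difference depends on the pattern.

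In Gα13-deficient cells no sterol enzyme passed. Of the 34 members, 0 rose and 1, Mylip, fell by edgeR's quasi-likelihood test, where 11% of all genes passed, 5.74% as higher and 5.24% as lower, so the share of members called was below the background. At an unadjusted p under 0.05, 8 members were higher and 2 lower, beside 13.1% and 12.8% of all genes tested. DESeq2 called Hmgcs1 and Cd36 higher and Mylip lower, among 1560 genes it called in all. The median log2 fold change was 0.26 over the members and -0.01 over all genes tested. Above 0 were 26 of 34 members, 16 of the 17 sterol enzymes among them, against 49% of all genes. In 6 of the 34 members all Gα13-deficient libraries were above all WT libraries, against 15.5% of all genes tested. Libraries of WT and Gα13-deficient cells with the same number in their titles deviated together, with correlations of 0.111 to 0.179. CD97-deficient and WT libraries of differing numbers reached 0.216, so correlations of this size also arose without a shared number. Replicate 2 alone had the female pattern in WT and in Gα13-deficient cells, so number and sex pattern overlap there. With the number as a block, a fit of these 2 groups also called Fdft1 and Npc2 higher (adjusted p = 0.0458 and 0.0346). With the block over all 9 libraries Acat2, Hmgcs1, Fdft1 and Fasn passed as higher. Without WT replicate 3, Acat2, Hmgcs1, Fdft1, Sqle and Fasn passed as higher, and without WT replicate 1 the median over the members was 0.10.

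Set against each other directly, the knockouts gave no member past the threshold. By edgeR's quasi-likelihood test 0 of 34 passed, with 8 members lower and 0 higher in Gα13-deficient cells at an unadjusted p under 0.05, beside 2.78% of all genes lower and 3.21% higher. DESeq2 called 1 member, Scd2, as lower, among 57 genes in all. Of all genes tested 0.0498% passed, 0.0332% as higher and 0.0166% as lower. The log2 differences leaned to one side: 30 of 34 members, among them 16 of 17 sterol enzymes, were below 0 in Gα13-deficient relative to CD97-deficient cells, with a median of -0.28 over the members and -0.00 over all genes, of which 49.1% were above 0. In 13 of the 34 members every Gα13-deficient library was below every CD97-deficient one, against 5.99% of all genes tested. In 0 members every Gα13-deficient library was above, against 7.16% of all genes. The smallest p belonged to Sc5d, at -0.60 ± 0.17 (95% interval -0.95 to -0.25; adjusted p = 0.461), and Cyp51, at -0.52 ± 0.17 (-0.90 to -0.15; adjusted p = 0.669). For Scd2 the difference was -0.71 ± 0.23 (-1.23 to -0.19; adjusted p = 0.687) and for Hmgcs1 -0.56 ± 0.22 (-1.05 to -0.06; adjusted p = 0.782). At 3 libraries a group, a higher sterol enzyme level in CD97-deficient than in Gα13-deficient cells was thus not established for any single gene.

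The 17 sterol enzymes also varied together between libraries of 1 group. Their mean log2 CPM, centred on the 9 libraries, was -0.72, -0.45 and -0.02 across WT replicates 1 to 3, 0.12, 0.45 and 0.61 across the CD97-deficient and -0.05, 0.08 and -0.02 across the Gα13-deficient ones. In WT, replicate 1 was the lowest library for 13 of the 17 and replicate 3 the highest for 13, where each was so in 34.1% and 33.9% of all genes tested. In the CD97-deficient group replicate 1 was the lowest for 16 of 17 and replicate 3 the highest for 13, against 32.8% and 33.1% of all genes. The ratio of the highest to the lowest library had a median over the enzymes of 1.81 among WT libraries, 1.44 among CD97-deficient and 1.13 among Gα13-deficient libraries, next to 1.30, 1.24 and 1.25 over all genes. The median WT ratio of these enzymes was thus above that of all genes, and the Gα13-deficient one below.

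Other gene groups also differed between these libraries, in orders other than that of the sterol enzymes. The 10 cell cycle markers, on the same scale, stood at -0.80, -0.41 and -0.95 across WT replicates 1 to 3, 0.39, 0.24 and 0.34 across the CD97-deficient and 0.23, 0.42 and 0.53 across the Gα13-deficient ones. Their summed CPM was 1236 to 1805 in WT, then 2781 to 2986 and 2870 to 3417 in the knockouts. All 10 rose in each knockout, while only the CD97-deficient libraries were all above the 9-library mean in sterol enzymes, and in WT the library with the highest enzyme level, replicate 3, had the lowest cell cycle level. The part of cell division in the sterol enzyme counts was not tested. CD97-deficient replicate 3, without which none of the 11 calls was kept, had the highest B cell marker sum (91.3 CPM, against 31.1 to 48.5 CPM in the other 8 libraries) and the lowest cDC2 marker sum (4459 CPM). The part of these in the sterol enzyme counts was not tested. Macrophage markers were highest in CD97-deficient replicate 1, the lowest of that group in sterol enzymes. A fit that included the macrophage level called 9 members (and 488 of all genes, where 1027 were called without it) in CD97-deficient against WT, all higher and 7 of them among the 10 that rose without it, and the median over the enzymes was 0.89 against 0.75 without it. In the female-pattern libraries alone, 3 CD97-deficient against 1 WT, the enzyme median was 0.88, all 17 were above 0, and Hmgcs1, Fdft1 and Sqle passed, among 233 of all genes. The lone WT library is there assumed to vary like the CD97-deficient ones.

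**Figure D5:**
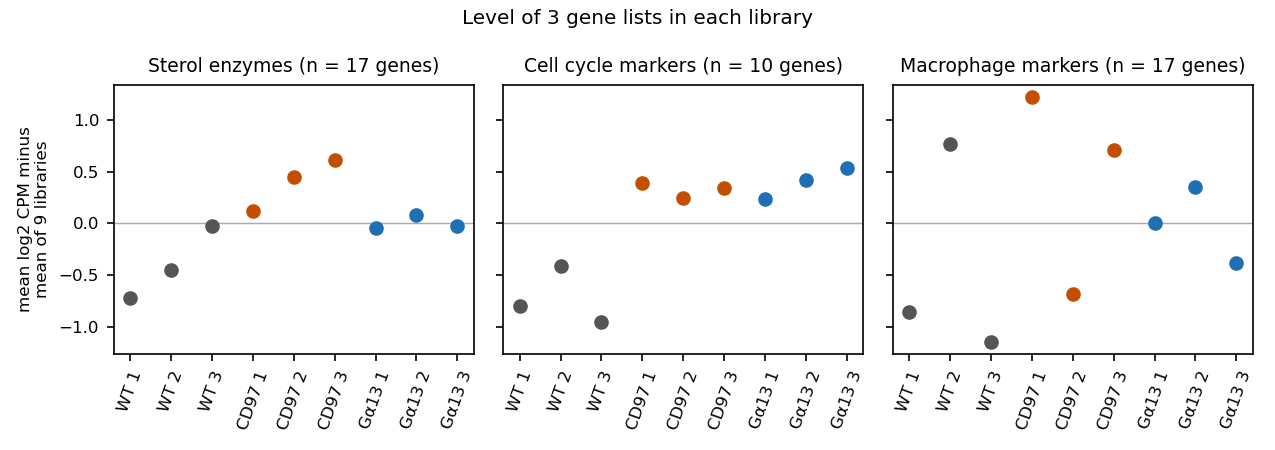
Mean level of the 17 sterol enzymes, 10 cell cycle markers and 17 macrophage markers (y axis, mean log2 CPM minus the mean of 9 libraries) in each library (x axis); each point is a library, coloured by group. Cell cycle markers separate WT from both knockouts, sterol enzymes separate WT from CD97-deficient libraries, and macrophage markers vary within groups.

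Neighbouring genes of the pathway outside the 34 were read from 7 lists with 66 symbols, of which 60 were in the table and 59 were tested. In CD97-deficient cells 3 rose and 1 fell, and in Gα13-deficient cells 4 rose and 1 fell, near the 8.53% and 11% of all genes tested. Acss2, which makes acetyl-CoA from acetate, had 7.20, 7.88 and 12.4 CPM across WT replicates 1 to 3, 15.6, 16.1 and 22.9 across the CD97-deficient and 12.6, 17.9 and 12.9 across the Gα13-deficient ones. Acss2 changed by 1.01 ± 0.24 (adjusted p = 0.0176) on the log2 scale in CD97-deficient cells, and 0.66 (adjusted p = 0.0933) in Gα13-deficient cells. Acly, which makes acetyl-CoA from citrate, changed by 0.31 ± 0.09 (adjusted p = 0.0385) and 0.30 ± 0.09 (adjusted p = 0.0385), and Pltp, a phospholipid transfer protein and LXR target, by 0.64 ± 0.17 (adjusted p = 0.0294) and 0.71 ± 0.17 (adjusted p = 0.0128). Cyp27a1, which makes 27-hydroxycholesterol, an LXR ligand, had 239, 181 and 199.9 CPM across WT replicates 1 to 3, 126, 141 and 102 across the CD97-deficient and 139.6, 121 and 111 across the Gα13-deficient ones. Both knockouts lay below WT without overlap, with -0.75 ± 0.13 (adjusted p = 0.00430) and -0.74 ± 0.13 (adjusted p = 0.00334). Dhdds, of dolichol synthesis, and Scarb1, a lipoprotein receptor, passed as higher in Gα13-deficient cells, at 0.40 ± 0.12 (adjusted p = 0.0455) and 0.45 ± 0.13 (adjusted p = 0.0416). The 9 genes of the SREBP cleavage and sterol sensing machinery had no call in either comparison, nor did the 5 tested genes of other sterol synthesis, whose median was 0.71 in CD97-deficient and 0.23 in Gα13-deficient cells. Cyp27a1 and Mylip were thus called lower in both knockouts and Pltp higher in both, whereas Abca1 and Abcg1 were not called. The Mylip call in CD97-deficient cells was kept in only some of the fits tried.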

How the data were processed

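Libraries of 3 WT, 3 CD97-deficient and 3 Gα13-deficient samples were grouped by their titles, and WT columns of the count table were matched through the source names. Source names and count columns number each WT library 1 higher than its title does. Replicate numbers here follow the titles. Values deposited by the authors are raw counts, 1 whole number per gene symbol and library. STAR, HTSeq, DESeq2 and the mm10 build are named in the submitters' processing notes without versions or roles. Strand setting and library kit are not given in the sources used here. No gene in the table totals fewer than 10 counts. The members and lists were chosen with earlier results of these data known.

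edgeR 4.0.16 (R 4.3.3) fitted the counts with TMM factors and robust quasi-likelihood F-tests after filterByExpr, which kept 12043 of 14209 genes, with 1 fit over 9 libraries. The test was tried on simulated data. Adjusted p is by Benjamini-Hochberg over all genes tested, and SE was computed from the F statistic. CPM is on the TMM scale, and 3 counts in a library equal 0.216 to 0.528 CPM. The labels do not tie libraries to separate mice, so each p reflects only how these libraries vary, part of which may be technical. Genes, coordinates and exon lengths come from GENCODE M21 (mm10), and promoters from RefSeq. Every member is accounted for, and members that passed, the 2 with the smallest p in the direct comparison and the highest of each role were given in full. Of other pathway genes, up to 4 per list that passed were named. Same-numbered WT and Gα13-deficient libraries deviated from their group means together (3 of 3 correlations over 0.1, from 0.111 to 0.179). Same-numbered libraries of the other pairs of groups did not (0 of 3 each). Among WT and Gα13-deficient libraries of differing numbers 0 of 6 correlations were over 0.1. Among CD97-deficient and WT libraries of differing numbers 4 of 6 were, up to 0.216, so correlations of this size also arose without a shared number. The labels do not say what a number marks. DESeq2 1.42.0, other scaling, no filter, blocks, covariates and leave-one-out fits were the alternatives. Female-pattern libraries alone, and both covariates together, were added after seeing the data.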

Additional observations from a re-analysis of the deposited data

How the results depend on the processing

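For CD97-deficient against WT, 11 members were called, with 5 in a fit of these 2 groups alone, 0 with the sex pattern in the model, 0 with sex pattern and macrophage level together, and 3 in female-pattern libraries alone. Leaving out 1 library gave 0 to 18. For Gα13-deficient against WT, 1 member was called, with 2 by library totals, 3 by DESeq2, 2 without robust estimation, 3 in male-pattern libraries (2 against 2), and 1 to 6 without 1 library. Female-pattern libraries gave 0 there, where each arm is 1 library and CD97-deficient libraries alone supply the error, so this says nothing of stability. With a replicate block, 5 (9 libraries) and 3 (2 groups) were called in that comparison, Gα13-deficient against WT. With the block 15 were called in either fit of CD97-deficient against WT, whose numbers do not pair. In the direct comparison DESeq2 called 1 member, and edgeR 0 under every other setting. The median over the members kept its sign in all settings tried (0.49 to 0.77, 0.10 to 0.35 and -0.37 to -0.20 in the 3 comparisons), and no called member changed direction. Male-pattern libraries alone could not be fitted for the CD97-deficient group, which has none. Depth is low for Cd36, Tm7sf2, Idi1 and Mvk, at 16, 22, 31 and 38 counts in their lowest libraries. It is also low for Acat2, with 42 counts in WT replicate 1, and for Nr1h3, which had the same 4.58 CPM in that library.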
